A study of Mus musculus with 11 samples.

Results

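The 10 genes described here encode granins and the enzymes and helpers that turn prohormones into peptides. They are the granins Chga, Chgb, Scg2, Scg3 and Vgf, the prohormone convertases Pcsk1 and Pcsk2, the convertase partners Scg5 and Pcsk1n, and the carboxypeptidase Cpe. They were found by gene symbol in both deposited count tables of hippocampal RNA-seq, as 10 of 24391 genes in the table of the heterozygous round and 10 of 24015 in the table of the homozygous round. Each had at least 1 CPM (a count scaled to the total of its library) in at least 1 library of each round, the filter used here, so all 10 were tested in both comparisons.

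Granins are acidic proteins of dense-core vesicles, the organelles in which neurons and endocrine cells store peptide cargo for regulated release. Several granins help the vesicle to form in the trans-Golgi network and are themselves cut into peptides. The convertases PC1/3 (Pcsk1) and PC2 (Pcsk2) cut prohormones at pairs of basic residues, and carboxypeptidase E (Cpe) then trims the basic residues from the new ends. The 7B2 protein (Scg5) is needed for PC2 to become active, and proSAAS (Pcsk1n) is an inhibitor of PC1/3. In the hippocampus, Scg2 and Vgf are known as genes induced by neuronal activity.

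Hippocampus was taken from mice at postnatal day 32 (given as adult in the labels), of strain C57BL/6N, from a line in which Cas9 removed the 1b regulatory region, a non-coding stretch of Scn1a, the gene of the sodium channel NaV1.1. The heterozygous round held 4 1b+/- mice with 1 deleted allele (labelled HT; replicates 1 to 3 male, replicate 4 female) and 3 wild-type (WT) mice, all male. The homozygous round held 2 1b-/- mice with 2 deleted alleles (labelled KO; replicate 1 male, replicate 2 female) and 2 WT mice, both female. The labels give no other allele and no treatment, and all mutants came from a single line with a germline deletion, which is not limited to a cell type. Because the rounds differed in read type, each mutant group was tested only against WT libraries sequenced with it. Levels set across rounds are given as descriptions, with no test, and the contrast of the changes in the 2 genotypes was fitted over all libraries. The question put to each comparison was whether the dense-core vesicle genes differed in mice that lack the 1b region on 1 or on both alleles.

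The proteins of this family differ in composition. In coding sequences of the GENCODE annotation of mm9, aspartate and glutamate together made up 21.8% of the residues of Chga, 23.2% of Chgb, 19.1% of Scg2, 19.8% of Scg3 and 20.3% of Vgf, against a median of 11.01% over 21531 genes. These shares were above those of at least 97.5% of genes, whereas in the other 5 members the share lay between 12.6% (Pcsk2) and 14.6% (Scg5). Chgb, a precursor of 677 residues, held 23 pairs of neighbouring basic residues, the kind of site that the convertases cut, and Vgf held 16 in 617 residues. Relative to its length, Chgb held more such pairs than 92.4% of genes. The share was 84.5% for Vgf, 71.3% for Chga, 54.3% for Scg3 and 53.3% for Scg2. It was also high for Scg5 (91.9%) and Pcsk2 (83.4%), so such pairs were not particular to the granins.

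Before the start sites of these genes, the cAMP response element (CRE), TGACGTCA, was searched because CREB, the factor that binds it, acts downstream of neuronal activity. RefSeq promoters of GRCm38.p6 were given for 8 members and not for Vgf and Cpe. In the 250 bases before the start, 3 of 8 members held the full element, Chgb, Scg2 and Pcsk1, against 1.55% of 32851 promoters. Its core, TGACG, read on either strand and contained in the full element, was found in 7 of 8 against 17.8% of promoters. The E-box CAGCTG was found in 2 of 8 against 13%. The matches are printed with 10 bases on either side, 5′ to 3′ on the strand of the gene, with the element in capitals. Each promoter was matched exactly to mm9, the build of the counts. The Chgb window lies at chr2:132607296-132607323 on the plus strand and its element begins 72 bases before the RefSeq start. The Scg2 window lies at chr1:79436652-79436679 on the minus strand, 68 bases before. The Pcsk1 window lies at chr13:75227217-75227244 on the plus strand, 78 bases before. Chga is shown for contrast: its window, at chr12:103793097-103793124 on the plus strand, holds only the core, 44 bases before the start.
Chgb: ggctgctccgTGACGTCAgggctgagcg
Scg2: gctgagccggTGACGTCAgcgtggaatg
Pcsk1: caggtagatcTGACGTCAagagatggct
Chga: ggcggtcctaTGACGtaatttcctgggt
In the annotation of mm9, the Chgb window lies within the gene and the Scg2 window crosses its first base, because GENCODE starts both genes further upstream than RefSeq does. A match describes these letters and not a bound site.

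**Figure D1:**
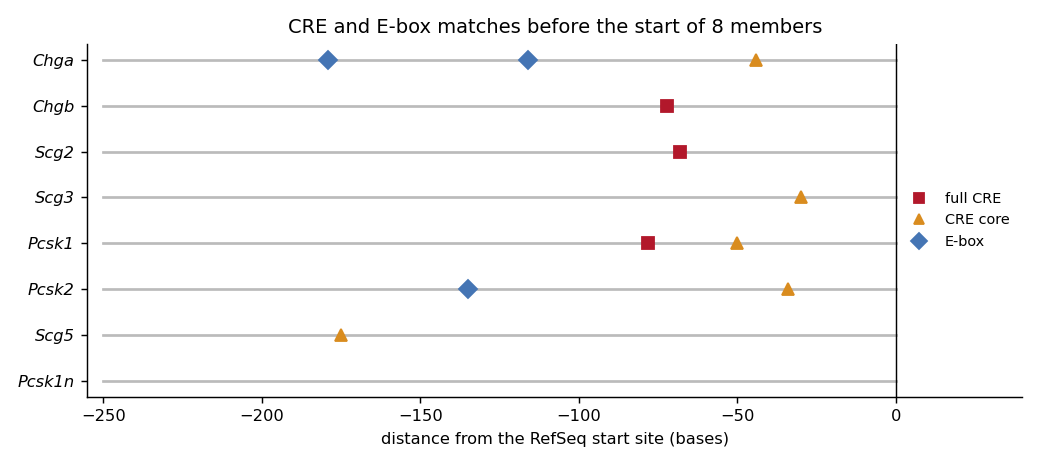
Matches to the full CRE (squares), to its core outside a full CRE (triangles) and to the E-box (diamonds) in the 250 bases before the RefSeq start of 8 members; the horizontal axis is the distance from the start in bases. The 3 full elements of Chgb, Scg2 and Pcsk1 lie between 68 and 78 bases before the start, and Pcsk1n has no match.

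In mm9, Chgb (ENSMUSG00000027350.7) lies on chromosome 2 from 132607014 to 132620815, Scg5 (ENSMUSG00000023236.7) from 113616519 to 113669278 and Pcsk2 (ENSMUSG00000027419.9) from 143371892 to 143642021 on the same chromosome. These 3 members share chromosome 2 with Scn1a, at distances of 66.3, 47.3 and 77.1 Mb from it. Chga (ENSMUSG00000021194.5) lies on chromosome 12 from 103793179 to 103803237, Scg2 (ENSMUSG00000050711.5) on chromosome 1 from 79431244 to 79436665 and Scg3 (ENSMUSG00000032181.6) on chromosome 9 from 75491071 to 75531803. Vgf (ENSMUSG00000037428.8) lies on chromosome 5 from 137506165 to 137509221, Pcsk1 (ENSMUSG00000021587.4) on chromosome 13 from 75227274 to 75269946 and Cpe (ENSMUSG00000037852.7) on chromosome 8 from 67071355 to 67171837. Pcsk1n (ENSMUSG00000039278.9) lies on chromosome X from 7496948 to 7501536 and overlaps Eras on the other strand, and Pcsk2 overlaps 2 non-coding genes on the other strand (C630020P19Rik and Gm12360). The strand setting of the counting is not given in the sources used here, so the values of Pcsk1n and Pcsk2 are uncertain to that extent.

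Library totals ran from 20667122 to 36145161 counts, and the members' own counts from 178 (Pcsk1) to 124863 (Cpe), so the spread between mice rather than counting error limited the comparisons. Scn1a, the check of the genotype, stood at 134 and 173 CPM in the WT mice and at 26.3 and 16.7 CPM in the 1b-/- mice, a log2 fold change of -2.83 (standard error (SE) 0.27, adjusted p = 0.0211 in edgeR's quasi-likelihood test). In the heterozygous round it was at 171, 113 and 123 CPM in WT and at 91.1, 83.3, 96.6 and 119 CPM in 1b+/- mice, a log2 fold change of -0.47 (SE 0.15, adjusted p = 0.303).

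All 11 libraries are labelled hippocampus, but the WT libraries of the homozygous round stood apart from the other 9 in regional markers. The summed level of 14 striatal markers was 9507 CPM in WT replicate 1 and 3957 CPM in replicate 2, against 429 to 494 CPM in 1b-/- libraries and 390.5 to 668 CPM in the heterozygous round. All 14 were lower in 1b-/- mice and 12 passed the test, with Ido1 (log2 fold change -6.60) and Adora2a (-6.43) furthest. The 7 markers of basal forebrain cholinergic neurons summed to 51.3 to 117 CPM in these WT libraries against 1.82 to 4.14 CPM in 1b-/- libraries, with 7 of 7 lower, 4 of them past the test, and Chat (-7.06) and Lhx8 (-6.99) furthest. Markers of hippocampal neurons went the other way. The 8 dentate granule cell markers summed to 169.7 to 174 CPM in these WT libraries and to 334 to 396 CPM in 1b-/- libraries (7 higher, 3 past the test), with C1ql2 (5.37) and Dsp (4.40) furthest. The 6 CA1 markers summed to 337 to 339 CPM against 675 to 942 CPM, and the 6 CA3 markers to 101 to 126 CPM against 299 to 392 CPM, all 12 of them higher and 5 past the test. C1ql2, a defining marker of dentate granule cells, was at 1.78 to 1.85 CPM in the WT libraries of this round and at 33.8 CPM or more in each of the other 9 libraries. No defining marker was at 0 in a whole group except Hcrt, a hypothalamic gene, in WT mice of the heterozygous round.

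The other marker lists of the homozygous round also differed, some of them in single libraries. The 12 pan-neuronal markers summed to 8024 to 9265 CPM in WT and to 9891 to 10625 CPM in 1b-/- libraries. Of these, 9 had a positive and 3 a negative log2 fold change, and none was called. The 7 choroid plexus markers ranged from 53.4 to 3432 CPM in WT and from 63.1 to 13691 CPM in 1b-/- libraries, the highest being 1b-/- replicate 2. Of the GABAergic interneuron list 1 of 10 was called higher and 1 lower. The 7 neocortex markers summed to 623 and 1030 CPM in WT and to 603 and 273 CPM in 1b-/- libraries, without overlap. Of these markers 6 had a negative log2 fold change and 1 was called lower, with a list median of -1.02. Glial lists differed without overlap in their sums: 6 astrocyte markers stood at 1566 to 1742 CPM in WT and at 2172 to 2198.5 CPM in 1b-/- libraries (5 of 6 higher, Gfap at a log2 fold change of 1.86 with an adjusted p of 0.0504, named after its value was seen). The 6 oligodendrocyte markers stood at 16274 to 22512 CPM against 11538 to 13508 CPM, and the 6 microglial markers at 437 to 458 CPM against 309 to 385 CPM, all 12 of them lower. No glial, thalamus or hypothalamus marker passed the test. Results of the homozygous round below are given beside these values, and the part of the regional and glial markers in them was not tested. In bulk tissue, fewer cells of a type in the piece taken and less RNA per cell cannot be told apart, in WT or in mutant libraries.

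**Figure D2:**
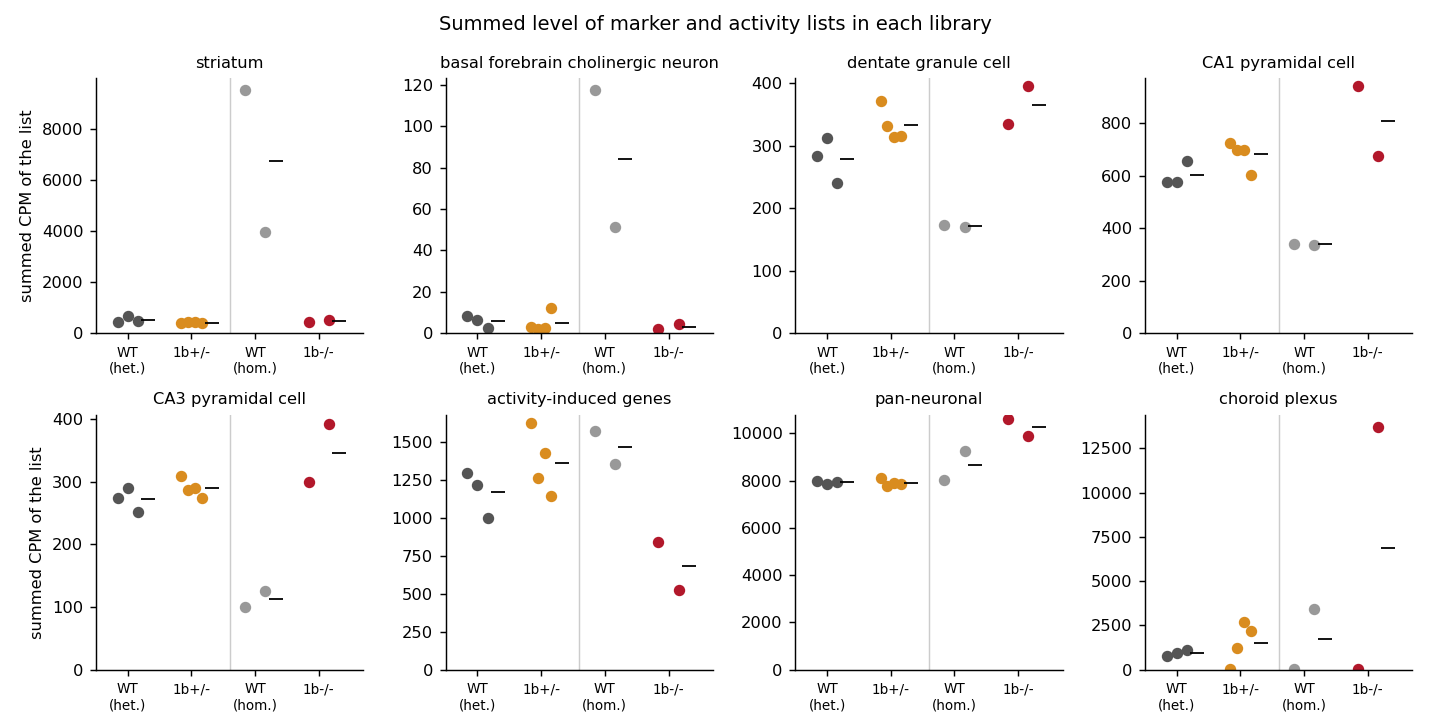
Summed CPM of 8 gene lists in each of the 11 libraries, in WT and 1b+/- mice of the heterozygous round (left of the grey line) and WT and 1b-/- mice of the homozygous round (right of it). Points are libraries and the black tick is the group mean; the 2 WT libraries of the homozygous round are highest for striatum and lowest for the dentate, CA1 and CA3 lists.

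Per kilobase of exon, Cpe was by far the most abundant member and Pcsk1 the least. Scaled over all 11 libraries, Cpe averaged between 1052 RPKM (CPM divided by the exon length in kilobases) in WT mice of the homozygous round and 1538 RPKM in 1b-/- mice, and Pcsk1 between 3.53 RPKM in 1b-/- mice and 10.4 RPKM in WT mice of the heterozygous round. Cpe held between 43.7% and 57.2% of the summed CPM of the 10 members in each library. In WT mice of the heterozygous round, Cpe (1279 RPKM ± 32.96 (SD, n = 3)) was followed by Chgb (205 ± 9.19 RPKM), Scg3 (136 ± 1.18 RPKM) and Pcsk1n (104 ± 3.66 RPKM), each above the next in all 3 libraries. Scg2 (87.7 ± 7.57 RPKM), Vgf (87.1 ± 5.78 RPKM) and Scg5 (83.7 ± 2.40 RPKM) came next and were not separated by their spread. Chga (57.7 ± 3.80 RPKM), Pcsk2 (36.3 ± 3.59 RPKM) and Pcsk1 (10.4 ± 0.745 RPKM) closed the order. 1b+/- mice had the same order of the first 4 and last 3 members.

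The order was another one in the homozygous round. In its WT mice, Scg3 (209.8 RPKM ± 37.0 (SD, n = 2)), Pcsk1n (192 ± 94.2 RPKM) and Chgb (182 ± 32.5 RPKM) overlapped one another. In 1b-/- mice, Chgb moved to rank 2 with 448 ± 72.4 RPKM and Pcsk1n was at 370.4 ± 53.3 RPKM, both above Scg3 (167 ± 8.99 RPKM) in each library. Chgb was thus 3.93 ± 0.416 times as abundant as Chga per kilobase in 1b-/- mice and 1.42 ± 0.204 times in their WT mice, but 4.15 ± 0.474 times in 1b+/- mice and 3.57 ± 0.390 times in the WT mice of that round. Chga itself stood higher in both groups of the homozygous round than in the heterozygous round. The level of Pcsk1 was 0.288 ± 0.0400 of that of Pcsk2 in WT and 0.251 ± 0.0121 in 1b+/- mice of the heterozygous round, and 0.100 ± 0.0395 in WT and 0.0848 ± 0.0533 in 1b-/- mice of the homozygous round. Ratios within a round overlapped between WT and mutant libraries for Pcsk1 over Pcsk2 and for Scg5 over Pcsk2, the latter at 2.32 ± 0.195 and 2.11 ± 0.0825 in the heterozygous round and at 2.93 ± 0.418 and 2.93 ± 0.138 in the homozygous round.

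**Figure D3:**
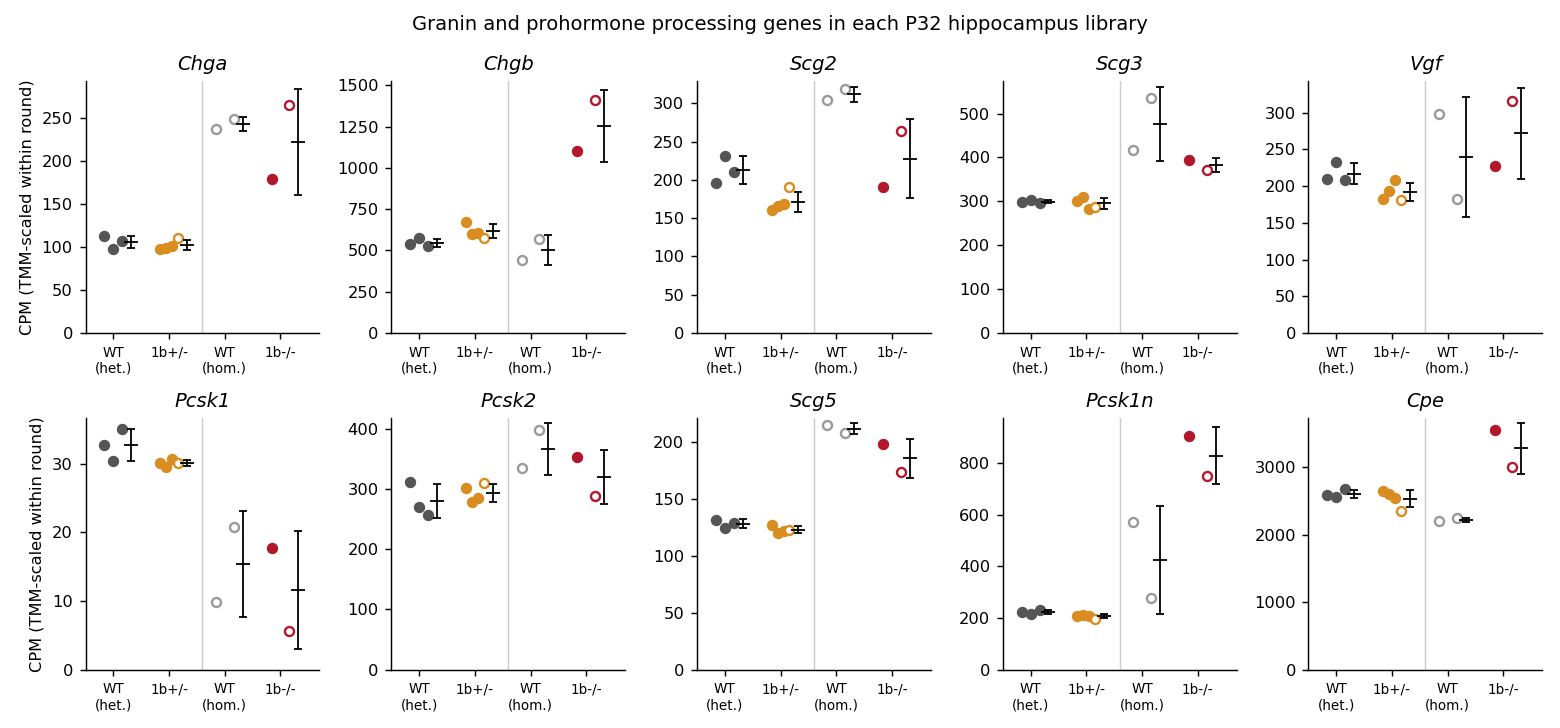
CPM of the 10 members in each library, TMM-scaled within a round, in the heterozygous round (left of the grey line in each panel) and the homozygous round (right of it). Filled points are male and open points female mice, with the group mean and SD beside them; Chgb stands at 1101 and 1409.8 CPM in the 1b-/- mice, above the other 9 libraries.

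No member passed the test in heterozygous mice. At an adjusted p under 0.05 in edgeR's quasi-likelihood test, 0 of 10 members and 0% of the 14630 genes tested were called. At an unadjusted p under 0.05, 4 of 10 members were counted (Chgb higher, and Scg2, Vgf and Pcsk1n lower) against 11.3% of all genes. The likelihood ratio test and DESeq2 each called 1 member, Scg2, against 1.31% and 1.74% of the genes they tested. In 3 of 10 members (Chgb, Scg2 and Pcsk1n) the libraries of the 2 groups did not overlap, against 10.9% of all genes. The median log2 fold change of the members was -0.06, beside 0.0007 over all genes, and the members ranged from -0.31 (Scg2) to 0.17 (Chgb).

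Among the granins in heterozygous mice, Scg2, the precursor of secretoneurin, had the largest difference. It stood at 196, 232 and 210.0 CPM in WT mice and at 160.4, 166, 169 and 190.3 CPM in 1b+/- mice. Every 1b+/- library was below every WT library, and the highest of the 4 was the only female. The log2 fold change was -0.31 (SE 0.07, adjusted p = 0.165), and among males alone, without 1b+/- replicate 4, it was -0.37 (adjusted p = 0.0754). Without WT replicate 1 it was -0.37 with an adjusted p of 0.0322, the only removal of a library under which it passed the test. That library stood apart from the other 2 WT libraries in summed thalamus markers (472 CPM against 119 and 94.3 CPM) and oligodendrocyte markers (9828 CPM against 6173 and 5937 CPM), whose part in the result was not tested.

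Chgb, the most acidic granin, leaned the other way in the heterozygous mice. It stood at 539.9, 575 and 528 CPM in WT and at 675, 603, 609 and 576 CPM in 1b+/- mice, so that the lowest 1b+/- library was within 1 CPM of the highest WT library. The log2 fold change was 0.17 (SE 0.06, adjusted p = 0.327). Chga, which is used as a general marker of dense-core vesicles, was at 113, 98.4 and 107 CPM in WT and at 98.1, 99.4, 101 and 111 CPM in 1b+/- mice (log2 fold change -0.05, SE 0.06). The groups overlapped over most of their range. Scg3, a partner of Chga at the vesicle membrane, lay at 299.6, 302 and 297 CPM in WT and at 299.9, 311, 284 and 288 CPM in 1b+/- mice (-0.02, SE 0.04). Vgf, whose peptides are secreted by neurons, was at 209.7, 233 and 208 CPM in WT and at 183, 194, 208 and 182 CPM in 1b+/- mice (-0.18, SE 0.06, adjusted p = 0.327). Only 1b+/- replicate 3 reached into the range of the WT mice.

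The log2 fold changes of the processing genes of heterozygous mice lay between -0.12 and 0.07. Pcsk1 was at 32.8, 30.5 and 35.1 CPM in WT and at 30.2, 29.5, 30.7 and 30.2 CPM in 1b+/- mice, a log2 fold change of -0.12 (SE 0.05, adjusted p = 0.444). Pcsk2 was at 312, 271 and 258 CPM in WT and at 302, 278, 285 and 310.2 CPM in 1b+/- mice (0.07, SE 0.07). The ranges of both convertases overlapped between the groups. Their partners were also close to WT. Scg5 was at 132, 124 and 129 CPM in WT and at 127, 119.6, 122 and 122 CPM in 1b+/- mice (-0.06, SE 0.04). Pcsk1n was at 223, 215 and 230.4 CPM in WT and at 209, 212, 209 and 195 CPM in 1b+/- mice, without overlap (-0.11, SE 0.04, adjusted p = 0.357). Cpe, the most abundant member, was at 2584, 2552 and 2674 CPM in WT and at 2641, 2598, 2539.7 and 2354 CPM in 1b+/- mice (-0.04, SE 0.05), and the female library was the lowest. In this round the striatal markers summed to 437 to 668 CPM in WT and to 390.5 to 438 CPM in 1b+/- mice, with 12 of 13 tested lower and none called (Adora2a -1.498 and Penk -1.24). The dentate granule cell markers summed to 240.4 to 313 CPM and to 315 to 372 CPM, with 8 of 8 higher and none called, Dsp (0.56) and Tdo2 (0.41) furthest. Of 3 cholinergic markers tested, none was called (Chat 0.37 and Slc5a7 -0.23 furthest). The GABAergic interneuron markers summed to 1057 to 1185 CPM in WT and to 976 to 1049 CPM in 1b+/- mice, without overlap, with 8 of 10 at a negative log2 fold change and 6 of those at an unadjusted p under 0.05. The CA1 markers summed to 576 to 656 CPM and to 603 to 725 CPM, and the oligodendrocyte markers to 5937 to 9828 CPM and to 8515 to 10023 CPM, with 6 of 6 at a positive log2 fold change in each. No marker of any list was called in this round. The part of these lists in the differences of the members was not tested.

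In homozygous mice Chgb rose and was the only member past the test. It stood at 441 and 568 CPM in WT mice and at 1101 and 1409.8 CPM in 1b-/- mice. Both 1b-/- libraries were far above both WT libraries. The log2 fold change was 1.32 (SE 0.22, adjusted p = 0.0467), a fold of 2.49. The 3 libraries whose removal ended the call were WT replicate 1 (log2 fold change 1.15), WT replicate 2 (1.51) and 1b-/- replicate 2 (1.13). Each such fit left 1 library in a group, and the number of all genes called also changed between such fits. Among females alone, without 1b-/- replicate 1, the log2 fold change of Chgb was 1.48. On CPM scaled over all 11 libraries, the 5 WT libraries of both rounds lay between 436 and 590 CPM and the 1b+/- libraries between 591 and 692 CPM, whereas the 1b-/- libraries were at 1088 and 1368 CPM. The 1b-/- libraries also had lower striatal, cholinergic, neocortex, oligodendrocyte and microglial sums than their WT libraries. Their dentate, CA1, CA3, pan-neuronal and astrocyte sums were higher, though 3 of the 12 pan-neuronal markers had a negative log2 fold change. The part of these lists in the change of Chgb was not tested.

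Counted over the members, 1 of 10 was called at an adjusted p under 0.05, against 3.58% of the 14838 genes tested (2.06% higher and 1.52% lower). At an unadjusted p under 0.05, 3 of 10 were counted, Chgb, Pcsk1n and Cpe, all higher, against 26.4% of all genes. In 6 of 10 members the 2 WT libraries did not overlap with the 2 1b-/- libraries (Chgb, Pcsk1n and Cpe higher, Scg2, Scg3 and Scg5 lower), against 59.7% of all genes, so that the count without overlap was near the background. The median log2 fold change of the members was -0.16, beside -0.001 over all genes. The summed CPM of the 10 members was 4999 to 5027 in WT and 6853 to 7112 in 1b-/- mice, and Cpe and Chgb made up most of the difference.

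Pcsk1n and Cpe, the other members without overlap and with higher values in 1b-/- mice, did not pass the test. Pcsk1n stood at 573 and 277 CPM in WT mice and at 906 and 752 CPM in 1b-/- mice. The WT libraries differed widely from each other, and replicate 1, the higher for Pcsk1n, also had the higher striatal sum. The log2 fold change was 0.96 (SE 0.36, adjusted p = 0.173), and it was 1.58 without WT replicate 1 and 0.53 without WT replicate 2. DESeq2, which called 14.4% of all genes in this comparison, gave an adjusted p of 0.0231. Cpe was at 2195 and 2242 CPM in WT mice and at 3545 and 3006 CPM in 1b-/- mice, a log2 fold change of 0.56 (SE 0.19, adjusted p = 0.152) or a fold of 1.48. Its WT libraries lay close together and both 1b-/- libraries were above them. DESeq2 gave an adjusted p of 0.00441. Scaled over all 11 libraries, Cpe was at 2618 to 2747 CPM in heterozygous-round WT mice and at 2918 and 3501 CPM in 1b-/- mice, and Pcsk1n at 221 to 237 CPM in the former and at 729.7 and 895 CPM in the latter.

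The remaining granins of homozygous mice did not pass the test. Scg2 was at 305 and 318 CPM in WT mice and at 191 and 265 CPM in 1b-/- mice (log2 fold change -0.45, SE 0.19, adjusted p = 0.203). Both 1b-/- libraries were lower, and among females alone the log2 fold change was -0.24 (adjusted p = 0.614). Scaled over all 11 libraries, the 1b-/- libraries (189 and 257 CPM) spanned the WT range of the heterozygous round (200.3 to 238 CPM). Scg3 was at 418 and 536 CPM in WT and at 394 and 371 CPM in 1b-/- mice (-0.32, SE 0.17, adjusted p = 0.294). Against heterozygous-round WT mice, on the scale of all 11 libraries, Scg3 was higher in 1b-/- mice (361 to 389 CPM against 305 to 310 CPM). Chga was at 238 and 249 CPM in WT mice and at 179 and 266 CPM in 1b-/- mice (-0.13, SE 0.21, adjusted p = 0.730). Vgf was at 298 and 182 CPM in WT and at 228 and 316 CPM in 1b-/- mice (0.18, SE 0.29, adjusted p = 0.720), and its log2 fold change was 0.58 without WT replicate 1 and -0.13 without WT replicate 2. For Chga and Vgf the groups overlapped.

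Both convertases of homozygous mice overlapped with WT. Pcsk1 was at 9.88 and 20.8 CPM in WT mice and at 17.7 and 5.58 CPM in 1b-/- mice (-0.40, SE 0.62, adjusted p = 0.715). The libraries of each genotype differed widely from each other, and all 4 were below the 29.5 CPM or more of the heterozygous round. Pcsk2 was at 335 and 397 CPM in WT and at 352 and 289 CPM in 1b-/- mice (-0.19, SE 0.17, adjusted p = 0.502). Scg5, its chaperone, was at 215 and 208 CPM in WT and at 198 and 173 CPM in 1b-/- mice (-0.19, SE 0.13, adjusted p = 0.393), with both 1b-/- libraries below WT.

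**Figure D4:**
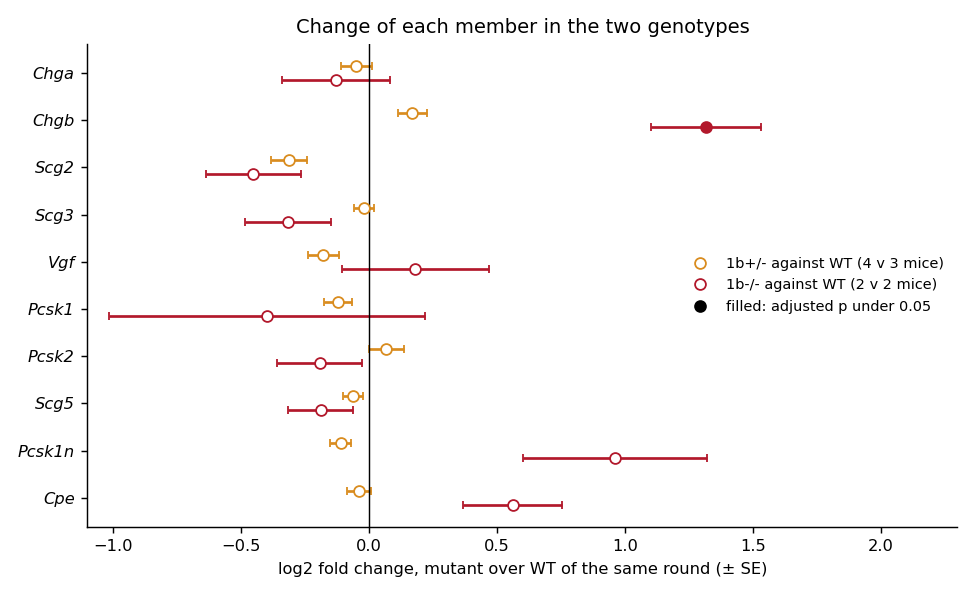
Log2 fold change of each member in 1b+/- mice (orange) and 1b-/- mice (red) against the WT mice of the same round, with SE as bars; filled points have an adjusted p under 0.05. The single filled point is Chgb in 1b-/- mice at 1.32, and the bars of the 2 v 2 comparison are wider than those of the 4 v 3 comparison.

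The change in 1b-/- mice minus that in 1b+/- mice was tested in 1 fit over all 11 libraries. It passed the test for 3 of 10 members, against 27.1% of 14907 genes, so that the count was near the background. Chgb had a difference of 1.13 on the log2 scale (SE 0.17, adjusted p = 0.00144), Cpe of 0.59 (SE 0.12, adjusted p = 0.00581) and Pcsk1n of 1.06 (SE 0.31, adjusted p = 0.0276). In all 3 the change in 1b-/- mice was the higher. The differences of Chgb and Cpe passed the test whichever library was left out, while that of Cpe did not pass in the likelihood ratio test on tagwise dispersions (adjusted p = 0.0830). That of Pcsk1n did not pass without 1b-/- replicate 1 (0.91, adjusted p = 0.0755), WT replicate 3 of the heterozygous round (1.04, adjusted p = 0.0582) or 1b+/- replicate 4 (1.03, adjusted p = 0.0506), nor with sex as a term (0.92, adjusted p = 0.0906). The other 7 members had differences between -0.31 (Scg3, SE 0.13, adjusted p = 0.0983) and 0.34 (Vgf, SE 0.25, adjusted p = 0.341). Because genotype dose and round change together here, the difference between genotypes and that between rounds cannot be told apart.

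Other genes of the pathway were read from 4 lists of 77 genes in all. In heterozygous mice 0 of the 73 tested passed the quasi-likelihood test and 26 had an unadjusted p under 0.05 (8 with a positive and 18 with a negative log2 fold change), against 0% and 11.3% of all genes. The likelihood ratio test called 7 and DESeq2 8, against 1.31% and 1.74% of all genes. Of 16 other processing enzymes, 7 had a positive and 9 a negative log2 fold change, 2 of each at an unadjusted p under 0.05, with a median of -0.02. The smallest p was that of Qpct, glutaminyl cyclase, at 10.4 CPM ± 0.837 (SD, n = 4) in 1b+/- against 12.9 CPM ± 1.31 (SD, n = 3) in WT mice (-0.32, adjusted p = 0.281). Of 23 genes of dense-core vesicle biogenesis and release, 4 had a positive and 19 a negative log2 fold change, with a median of -0.08, and 7 of the latter had an unadjusted p under 0.05. Resp18, a luminal protein of these vesicles, was at 28.8 ± 2.60 CPM against 43.6 ± 5.602 CPM (-0.60, SE 0.09, adjusted p = 0.0777). Of 19 neuropeptide and neurotrophin genes, 2 had a positive and 17 a negative log2 fold change, with a median of -0.25, and 9 of the latter had an unadjusted p under 0.05. This list shares 2 genes with the striatal list and 4 with the GABAergic interneuron list, so these lists are not independent. Trh, the precursor of thyrotropin-releasing hormone, had the smallest p (-3.77, SE 0.45, adjusted p = 0.0532). Of 15 activity-induced genes, 9 had a positive and 6 a negative log2 fold change, with a median of 0.25, and 6 of the former had an unadjusted p under 0.05. Npas4, an activity-induced transcription factor, had the smallest p at 24.2 ± 5.87 CPM against 14.2 ± 3.24 CPM (0.76, SE 0.20, adjusted p = 0.228).

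In homozygous mice 8 of the 77 passed the test, against 3.58% of all genes, 2 of them higher (2.06% of all genes) and 6 lower (1.52%). Of 17 other processing enzymes only Tpst2, a tyrosine sulphotransferase of the Golgi, was called, with 38.9 CPM ± 0.472 (SD, n = 2) in 1b-/- against 21.9 CPM ± 2.63 (SD, n = 2) in WT mice (0.83, adjusted p = 0.0499). Of 23 vesicle genes only Sytl5, a Rab27 effector, was called, with 5.56 ± 1.48 CPM against 17.7 ± 2.47 CPM (-1.67, adjusted p = 0.0385). The medians of these 2 lists were 0.21 and 0.15. Of 22 neuropeptide and neurotrophin genes, Cck (cholecystokinin) rose from 155 ± 35.4 CPM to 403 ± 78.8 CPM (1.38, adjusted p = 0.0469). Cck is also the gene of the GABAergic interneuron list that was called higher. Penk (enkephalins) and Tac1 (substance P) fell, with log2 fold changes of -4.80 (adjusted p = 0.0283) and -4.41 (adjusted p = 0.0207). Both are also on the striatal list, at 892 to 2109 CPM and 78.8 to 127 CPM in the WT mice of this round against 20.4 to 69.2 CPM and 8.03 to 12.2 CPM in heterozygous-round WT mice.

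Of the 15 activity-induced genes, 3 were called lower in homozygous mice, against 1.52% of all genes, and none was called higher. The log2 fold change was negative in 11 and positive in 4, with a list median of -1.03. Egr2, an activity-induced transcription factor, went from 12.5 CPM ± 0.887 (SD, n = 2) in WT to 1.34 CPM ± 0.560 (SD, n = 2) in 1b-/- mice (-3.21, adjusted p = 0.0238). Arc, which acts at active synapses, went from 319.5 ± 25.8 CPM to 107 ± 27.1 CPM (-1.58, adjusted p = 0.0307), and Homer1, a postsynaptic scaffold gene, from 171 ± 8.80 CPM to 63.9 ± 11.1 CPM (-1.42, adjusted p = 0.0251). Summed, the list stood at 1360 to 1575 CPM in WT and at 524 to 843 CPM in 1b-/- mice, and at 999 to 1296 CPM and 1146 to 1625 CPM in WT and 1b+/- mice of the heterozygous round. Chgb, which holds a CRE, rose in the same 1b-/- libraries, while Scg2 and Pcsk1, which also hold it, were at -0.45 and -0.40 and did not pass the test. The part of the CRE, of neuronal activity and of the regional markers of this round in these values was not tested. In homozygous mice the number of the 77 genes past the test changed with the removal of single libraries, as did the number over all genes.

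**Figure D5:**
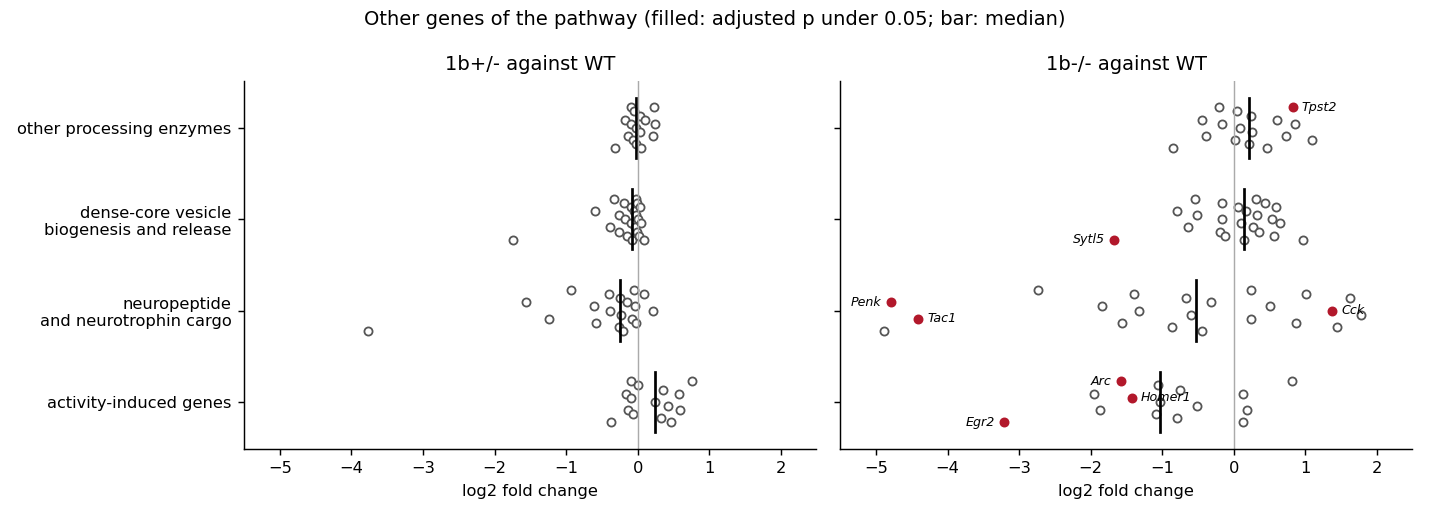
Log2 fold change of the genes of 4 pathway lists in 1b+/- (left) and 1b-/- mice (right) against WT mice of the same round, with 1 point per gene and a bar at each list's median; filled points have an adjusted p under 0.05. All points are open in 1b+/- mice, and in 1b-/- mice 8 are filled. Of the filled points, Penk and Tac1 lie furthest to the left at -4.80 and -4.41.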

How the data were processed

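RNA-seq counts per gene, deposited by the authors as raw counts without normalization, were used for 11 hippocampus libraries. Per the labels and the study's methods, stranded mRNA libraries were aligned to mm9 with STAR 2.7.2 and counted with featureCounts, with single-end reads in the homozygous and paired-end reads in the heterozygous round. GEO's sample descriptions name the other of the 2 tables for each round, and columns were matched to samples by their names. Symbols that read as dates, 27 in each table (0.300% to 0.372% of counts), were kept within a round. At the shallowest depth 1 CPM is 20 counts. Genes reaching 1 CPM in 1 library or more were fitted in edgeR 4.0.16 (R 4.3.3) with TMM factors, glmQLFit and glmQLFTest, genotype as the only term and Benjamini-Hochberg adjustment over all genes tested. SE was derived from the log2 fold change and the F statistic. The difference between genotypes was fitted over all 11 libraries on 23646 shared genes. The labels do not say whether samples of a group are separate litters, so p-values measure the spread between these samples. The members and lists were chosen with earlier results of these data known. The genes named were all 10 members, Scn1a, from each pathway list every gene past the threshold (up to 4) or else that with the smallest p, and the 2 furthest genes of the striatal, cholinergic and dentate lists; C1ql2 levels and Hcrt were added after their values were seen. Alternatives were the likelihood ratio test, DESeq2 1.42.0, other scaling factors, other filters, sex as a term, a joint fit of all libraries and the removal of single libraries. The fitting code was tested on simulated data. Promoters came from RefSeq and were matched to mm9 by sequence.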

Additional observations from a re-analysis of the deposited data

Results flagged for a closer look

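The change in 1b-/- mice minus the change in 1b+/- mice was tested as a contrast in 1 fit over all 11 libraries. It differed from 0 for Chgb (1.13 on the log2 scale), Pcsk1n (1.06), Cpe (0.59) and Scn1a (-2.37, SE 0.32, adjusted p = 8.58e-04 in edgeR's quasi-likelihood test). The contrast passed the test for 27.1% of 14907 genes, so 3 of 10 members was near the background. That of Pcsk1n did not pass with sex as a term. Genotype dose and round change together in this contrast and cannot be told apart. For Chgb both changes were higher than WT, 1.32 in 1b-/- and 0.17 in 1b+/- mice. For Pcsk1n and Cpe the change was above 0 in 1b-/- mice (0.96 and 0.56) and below 0 in 1b+/- mice (-0.11 and -0.04). No change of Chgb, Pcsk1n or Cpe passed the test in 1b+/- mice, and only that of Chgb passed it in 1b-/- mice. In an outlier test gene by gene, no library of the 1b+/- group, the only group of 4, stood out in any of the 11 genes examined. Replicate 4, the only female, was the highest of the 4 for Chga, Scg2, Pcsk2 and Scn1a and the lowest for Chgb, Vgf, Pcsk1n and Cpe. Sex and this library cannot be told apart.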

How the results depend on the processing

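Directions of the members past the test were kept under all alternatives. In heterozygous mice the likelihood ratio test, the same test on tagwise dispersions and DESeq2 each called 1 member (Scg2, adjusted p = 0.0181, 0.0196 and 0.00604), 191, 189 and 245 genes, and 7, 7 and 8 other pathway genes; with no filter these were 44 genes and 5 pathway genes. Leaving out each library gave 0 to 1 members, 0 to 421 genes and 0 to 10 pathway genes, the highest of each without WT replicate 1. Scn1a passed the test on tagwise dispersions (-0.47, adjusted p = 0.0385). In homozygous mice these 3 tests called 1829, 1574 and 2144 genes and 21, 20 and 23 pathway genes, and no filter gave 1029 and 14. DESeq2 called 3 members, against 14.4% of all genes. All 11 libraries in 1 fit called 5 members (Chgb, Pcsk1n, Cpe, Scg2 and Scg3), 5521 of 14907 genes and 33 pathway genes. With sex as a term the median log2 fold change of the members was -0.054. That fit rests on the female libraries, because the only male of the homozygous round was a 1b-/- mouse. Leaving out each library gave 0 to 1 members, 0 to 693 genes, 0 to 15 pathway genes and a median between -0.16 and -0.053. Scn1a was at -3.20 to -2.54 and did not pass without WT replicate 1 (adjusted p = 0.101) or WT replicate 2 (adjusted p = 0.0601). For the difference between genotypes 3 of 10 members passed in the main fit, against 27.1% of 14907 genes. With the likelihood ratio test on tagwise dispersions 2 passed, and Cpe did not (adjusted p = 0.0830). With 1 library left out of a pair, the lone sample is assumed to vary like the others. The causes of these changes were not tested. Under other scalings the median log2 fold change of all genes lay between -0.016 and 0.012, and the same number of members was higher. No paired analysis was possible because the labels give no replicate numbers shared between groups. Members had 178 counts or more in each library.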
